A study of Mus musculus with 24 samples.

Results

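Cornified-envelope and injured-epithelium genes are followed here across the lungs of 6 inbred mouse strains with and without a TGF-β1 transgene. The 8 listed genes are Tgm1, Sfn, Sprr1a, Scel, Ecm1, Evpl, Dsp and Upk1b, of 13499 genes measured. All 8 were found by gene symbol in the probe annotation, and each had 1 probe set. They were chosen by their TG and WT values in the 6 strains, in which Sfn and Tgm1 were higher and Scel lower in TG mice. Differences between TG and WT mice are therefore given for these 8 genes as a description, with no test. Total RNA of the right lung lobe was measured on 24 arrays, 1 mouse each. There were 17 transgenic mice (TG), with a transgene encoding TGF-β1, a cytokine that drives fibrosis, and 7 wild-type mice (WT). Every mouse, WT included, had drunk doxycycline, the drug that induces the transgene, for 2 weeks. C57BL/6J was represented by 2 TG and 2 WT mice, and each of the other 5 strains by 3 TG mice and a single WT mouse. By the series design, fibrosis-prone strains were C57BL/6J, A/J and AKR/J, and fibrosis-resistant strains were C3H, BALB/cJ and 129. The fibrosis code of the single samples gives the opposite assignment when its key is followed, which would flip the sign of each prone minus resistant value. AKR/J and BALB/cJ carry an emphysema label, 129 and C3H a no-emphysema label, and A/J and C57BL/6J neither. For the transgene's promoter, and for age and sex of the mice, no statement was found in the sources used here.

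The cornified envelope is a sheet of cross-linked protein that squamous cells, such as those of the outer skin, build beneath their plasma membrane. Envoplakin and periplakin lay a scaffold next to desmosomes, small proline-rich proteins and other precursors are added to it, and transglutaminases join them by bonds between glutamine and lysine. Healthy lung has no keratinised layer. Several of the same genes are used by simple epithelia, and sciellin is found in the flat alveolar type 1 cell. The 14-3-3σ protein, made from Sfn, is a p53 target that holds the cell cycle in check and is found in injured alveolar epithelium on its way from type 2 to type 1 cells.

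Values are log2 intensities with array medians between 7.759 and 7.835, so a difference of 1 is a doubling. The table was held in part. It covered 76.1% or more of the protein-coding genes of chromosomes 1 to 4 and 10 to 19, 26.3% of those of chromosome 5 and at most 2.0% on the other chromosomes, so Tgfb1 itself and other genes there were not analysed here. Of the 15 genes listed to check the tissue, 12 were measured, among them Sftpc, the type 2 cell surfactant gene, with a mean of 14.38 over the 24 mice, and Ager, a type 1 cell gene, with 13.21. In this bulk tissue, fewer cells of a type and less RNA per cell cannot be told apart.

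Promoters of 4 of the genes are shown because Sfn, Sprr1a and Tgm1 were higher and Scel lower in TG lungs. Each run holds the 250 bases before a gene's start, on the gene's own strand, from RefSeq on GRCm38.p6, which held a promoter for 6 of the 8 genes. Capitals mark matches to the AP-1 motif TGANTCA or the grainyhead motif AACNGGTT on either strand.
Sfn: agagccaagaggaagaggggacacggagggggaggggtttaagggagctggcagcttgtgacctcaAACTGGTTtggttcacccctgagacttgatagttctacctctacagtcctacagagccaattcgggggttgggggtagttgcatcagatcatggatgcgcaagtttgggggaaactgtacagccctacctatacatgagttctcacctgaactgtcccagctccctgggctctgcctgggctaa
Sprr1a: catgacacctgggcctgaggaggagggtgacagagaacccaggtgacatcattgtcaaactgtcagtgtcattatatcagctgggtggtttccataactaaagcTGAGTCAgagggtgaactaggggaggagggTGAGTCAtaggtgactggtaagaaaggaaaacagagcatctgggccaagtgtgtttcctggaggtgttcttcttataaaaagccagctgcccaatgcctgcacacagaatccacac
Tgm1: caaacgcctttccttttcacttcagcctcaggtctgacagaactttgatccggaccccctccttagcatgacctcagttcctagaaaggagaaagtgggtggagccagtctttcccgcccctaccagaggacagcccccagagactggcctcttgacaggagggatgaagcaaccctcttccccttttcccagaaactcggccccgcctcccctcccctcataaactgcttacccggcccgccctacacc
Scel: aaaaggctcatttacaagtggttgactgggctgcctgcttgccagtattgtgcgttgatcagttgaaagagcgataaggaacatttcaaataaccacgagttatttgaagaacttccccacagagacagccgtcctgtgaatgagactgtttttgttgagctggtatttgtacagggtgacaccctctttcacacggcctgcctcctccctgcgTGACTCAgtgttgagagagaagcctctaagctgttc
The windows lie at chr4:133602169-133602418 (minus strand, Sfn), chr3:92485882-92486131 (minus, Sprr1a), chr14:55713493-55713742 (minus, the first of 2 starts of Tgm1) and chr14:103513091-103513340 (plus, Scel). In the windows of 300 bases, which add the 50 bases after the start, Sprr1a had 2 AP-1 matches, which begin 146 and 116 bases before the start. Scel had 1, at 36 bases before the start, and so did Ecm1, at 64 bases before it. AP-1 is the family of Fos and Jun factors, and its motif was found in 7.81% of all 32851 promoter windows, with 2 or more matches in 0.46%. Sfn had 1 grainyhead match, 184 bases before its start. Grainyhead factors govern epithelial barrier genes, and their motif was found in 2.09% of all windows. The motif of TEAD factors (GGAATG, in 14.7% of windows), was in no window of the 6 genes. That of ETS factors (AGGAAG, in 35.4%) was found once each in the windows of Sfn and Scel. The motifs do not overlap one another in these windows, neither Tgm1 window nor that of Dsp held any of them, and a match is only a run of letters.

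Tgm1 encodes transglutaminase 1, the membrane-bound enzyme that cross-links envelope proteins. Its level set all TG mice apart from all WT mice, at 8.49 to 9.78 in TG (median 9.47, n = 17) and 7.57 to 7.97 in WT (median 7.83, n = 7). The A/J mice read 9.53, 9.69 and 9.78 in TG against 7.83 in WT, and the 129 mice 9.51, 9.64 and 9.65 against 7.97. In C57BL/6J the TG mice read 9.49 and 9.54 and the WT mice 7.89 and 7.95. These 3 strains held the highest TG levels, and their TG mice did not overlap those of AKR/J or BALB/cJ. AKR/J TG mice read 8.61, 8.67 and 8.67 against 7.80 in WT. BALB/cJ TG mice read 8.49, 8.66 and 8.91 against 7.57. The C3H TG mice were spread widely, at 8.54, 8.95 and 9.47 against 7.75, and reached from the AKR/J level to just under the C57BL/6J level. With strain taken out, TG exceeded WT by 1.39 ± 0.11 (SE; 2.62-fold), from 0.84 ± 0.22 in AKR/J to 1.84 ± 0.22 in A/J.

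Sfn, the 14-3-3σ gene, was higher in every TG mouse than in any WT mouse of its strain. In C57BL/6J the TG mice read 9.74 and 10.12 and the WT mice 8.10 and 8.23. In A/J the TG mice read 9.03, 9.40 and 9.41 against 7.62 in WT. These were the highest TG strains for Sfn, and their mice overlapped neither each other nor those of any other strain. The 129 TG mice read 8.56, 8.79 and 8.89 against 7.51, and the C3H mice 8.30, 8.35 and 8.60 against 7.53. BALB/cJ TG mice read 8.30, 8.45 and 8.67 against 7.85. Levels in 129, BALB/cJ and C3H overlapped. AKR/J stood lowest, with TG mice at 7.77, 7.91 and 8.51 against 7.61 in WT, and 2 of its 3 TG mice lay under the C57BL/6J WT mice. The TG minus WT difference was 1.14 ± 0.14 with strain taken out (2.20-fold), 1.77 ± 0.21 in C57BL/6J and 0.46 ± 0.24 in AKR/J.

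Sprr1a encodes a small proline-rich precursor of the envelope, and its difference was smaller and less even. The A/J TG mice read 8.32, 8.92 and 9.06 against 7.62 in WT. The C57BL/6J TG mice read 8.73 and 9.20, against 8.42 and 8.43 in WT. Those WT mice had the highest Sprr1a of the 7 WT mice, and 11 of the 17 TG mice lay at or below them. C3H TG mice read 8.08, 8.42 and 8.62 against 7.78, and BALB/cJ TG mice 7.66, 7.83 and 7.83 against 7.38. In 129 (7.84, 8.16 and 8.71 against 7.95) and AKR/J (7.33, 7.68 and 7.74 against 7.39), 1 TG mouse each lay below the WT mouse of its strain. TG exceeded WT by 0.53 ± 0.12 with strain taken out (1.44-fold), from 0.20 ± 0.30 in AKR/J to 1.15 ± 0.30 in A/J.

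Scel encodes sciellin, a precursor protein of the envelope that is also made by type 1 cells, and it ran the other way. All 17 TG mice lay below the WT mice of their own strain. The C57BL/6J TG mice read 7.51 and 8.25 against 9.98 and 9.99 in WT. The A/J TG mice read 8.17, 8.43 and 8.98 against 10.35. BALB/cJ TG mice read 8.78, 8.84 and 9.12 against 9.88. The 129 TG mice were uneven, with 9.43 and 9.44 in 2 mice and 8.45 in the other, against 10.15 in WT. AKR/J (9.35, 9.71 and 9.82 against 10.27) and C3H (9.84, 10.08 and 10.19 against 10.42) kept the highest TG levels, and 2 C3H TG mice lay above the lowest WT mice of other strains. The 7 WT mice spanned 9.88 to 10.42 and the 17 TG mice 7.51 to 10.19. TG lay below WT by -1.21 ± 0.18 with strain taken out (2.31-fold lower), from -2.11 ± 0.31 in C57BL/6J to -0.38 ± 0.35 in C3H.

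Ecm1, Evpl and Dsp differed little. Ecm1, a secreted glycoprotein first found in matrix and also made by keratinocytes, lay at 10.97 to 11.36 in TG and 11.01 to 11.52 in WT mice. In 16 of 17 TG mice it was below every WT mouse of the same strain, with a difference of -0.25 ± 0.05. Evpl encodes envoplakin, the scaffold plakin, and lay at 7.94 to 8.29 in TG and 7.78 to 8.14 in WT, a difference of 0.07 ± 0.04. Dsp encodes desmoplakin, which ties keratin filaments to the desmosome, and lay at 9.94 to 10.41 in TG and 9.83 to 10.28 in WT, a difference of 0.13 ± 0.05. Evpl was higher in TG in 5 of 6 strains, with C3H the exception (-0.08 ± 0.08). Dsp was also higher in 5 of 6, with 129 the exception (-0.04 ± 0.11), and its largest difference was in AKR/J (0.39 ± 0.11).

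Upk1b, a tetraspanin of the uroplakin family that is known from urothelium and mesothelium, followed strain and not genotype. The 129 TG mice read 10.75, 10.80 and 10.81 and the WT mouse 10.83. C57BL/6J read 10.28 and 10.40 in TG and 10.61 and 10.63 in WT. A/J read 8.99, 9.17 and 9.33 in TG and 9.45 in WT. AKR/J read 8.99, 9.13 and 9.18 in TG and 8.85 in WT, and BALB/cJ 8.77, 9.32 and 9.33 in TG and 8.88 in WT. The A/J, AKR/J and BALB/cJ mice of both genotypes thus lay at 8.77 to 9.45, and those of 129 and C57BL/6J at 10.28 to 10.83. C3H was split by genotype, at 10.09, 10.09 and 10.46 in TG and 9.17 in its single WT mouse. TG minus WT was 1.05 ± 0.19 in C3H and between -0.29 ± 0.19 and 0.26 ± 0.19 in the other 5 strains. Over all strains it was 0.14 ± 0.12, and -0.03 without the C3H WT mouse, which takes C3H out of the difference.

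**Figure D1:**
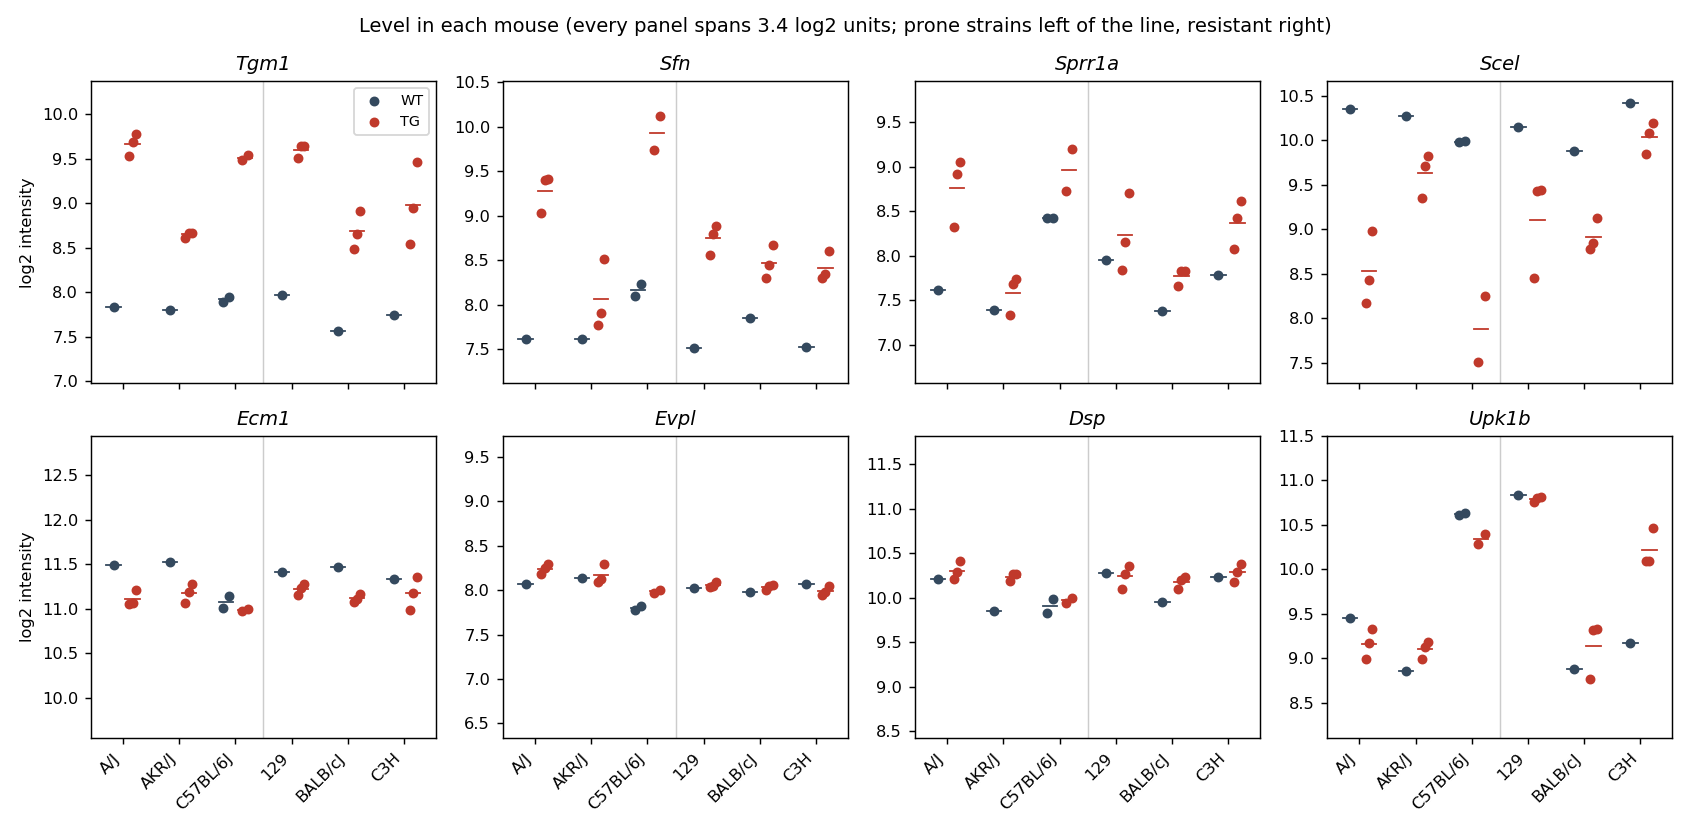
Level of each of the 8 genes (y axis, log2 intensity) in each mouse, by strain (x axis), with WT in dark blue and TG in red; each point is a mouse, short lines are group means, and all panels span the same range. TG and WT points are apart in every strain for Tgm1, Sfn and Scel, while Upk1b follows strain, with the C3H WT mouse at 9.17 far from its TG mice at 10.09 to 10.46.

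**Figure D2:**
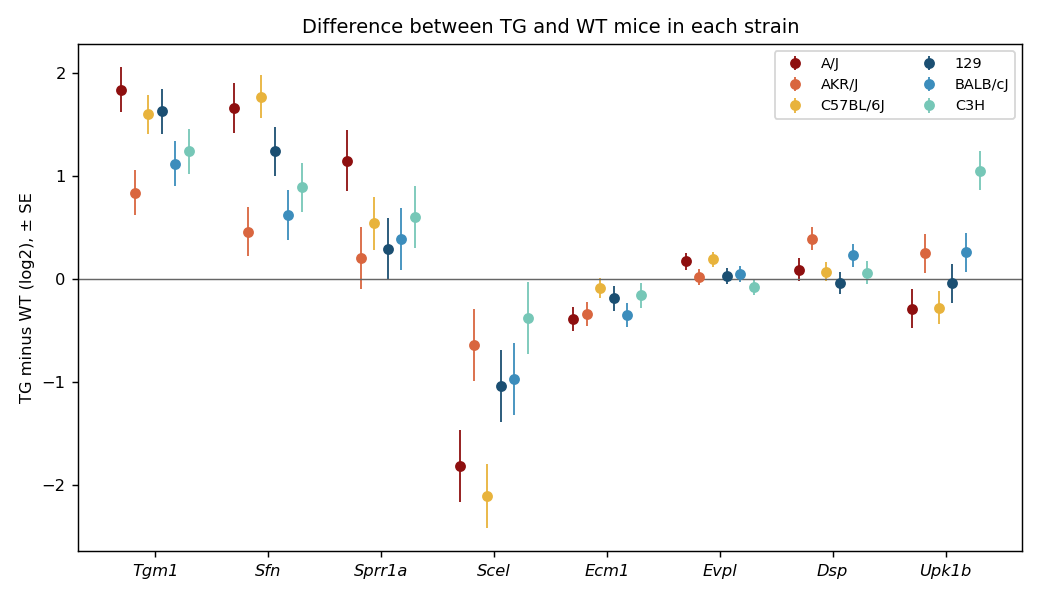
TG minus WT on the log2 scale (y axis) for each gene (x axis) in each strain (colours), with bars of ± SE from the fit with 12 group means. For Tgm1, Sfn and Scel all 6 strains lie on 1 side of zero, and AKR/J (0.84 for Tgm1 and 0.46 for Sfn) and, for Scel, C3H (-0.38) lie nearest to it.

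The comparisons between strains that follow reuse the TG and WT values that were in view when the genes were chosen, so their p-values set a difference against the spread between mice and are no independent support. They were made with limma on all 13499 genes, with p-values adjusted by Benjamini and Hochberg's method over all of them, and a gene was called at an adjusted p under 0.05. Averaged over strains, prone TG mice carried more Sfn and less Scel and Upk1b than resistant TG mice, but not in every strain. Scel averaged 9.63 in prone AKR/J, above resistant 129 (9.11) and BALB/cJ (8.91), while A/J (8.53) and C57BL/6J (7.88) lay below both. Upk1b averaged 10.34 in prone C57BL/6J, above resistant C3H (10.21) and BALB/cJ (9.14) and below 129 (10.79). Of the 8 genes 3 were called, 1 higher and 2 lower, against 11.1% of all genes (6.44% higher and 4.69% lower). Sfn differed by 0.55 ± 0.10 (limma adjusted p = 0.0018), with 7.77 to 10.12 (median 9.22) in the 8 prone and 8.30 to 8.89 (median 8.56) in the 9 resistant mice. The sets overlapped, because prone AKR/J held the lowest Sfn of all strains. Scel differed by -0.68 ± 0.15 (limma adjusted p = 0.007), with prone mice at 7.51 to 9.82 (median 8.70) and resistant mice at 8.45 to 10.19 (median 9.43). Upk1b differed by -0.51 ± 0.08 (limma adjusted p = 0.00042), with prone mice at 8.99 to 10.40 and resistant mice at 8.77 to 10.81. The sets overlapped in all 8 genes, whereas 0.126% of all genes were free of overlap. Tgm1 was at 0.19, with a 95% interval of -0.01 to 0.38 (limma adjusted p = 0.25), and Sprr1a at 0.31, with an interval of 0.04 to 0.58 (limma adjusted p = 0.14). For Evpl (0.11, interval 0.03 to 0.18), Ecm1 (-0.08, -0.19 to 0.02) and Dsp (-0.06, -0.16 to 0.03) the threshold was also missed. Sprr1a was called without TG mouse 3 of 129 (0.39, limma adjusted p = 0.04) or TG mouse 2 of A/J (0.38, adjusted p = 0.044). Tgm1 was called without TG mouse 2 of C3H (0.27, limma adjusted p = 0.017) and stood at 0.11 without TG mouse 3 of C3H (adjusted p = 0.41). Evpl was called without TG mouse 3 of A/J or TG mouse 2 of AKR/J (0.12 each, limma adjusted p = 0.049 and 0.047). These tests take mice as the unit and speak of these 6 strains. With the 6 strain means as the unit, limma called 0 of the 8 genes and 0 of all genes, with 0 of the 8 and 518 of all genes at an unadjusted p under 0.05.

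Cell markers were set beside the shares of all genes called in this comparison, 4.69% lower and 6.44% higher. Of 15 measured type 1 cell markers, 4 were lower in prone TG mice (among them Ager at -0.15 ± 0.04 and Sema3e at -0.23 ± 0.04). Akap5 alone was higher (0.24 ± 0.06), and the list median was -0.06. The mean level of the list ran from 11.22 to 11.85 in prone and from 11.36 to 11.80 in resistant TG mice, with the highest values in prone AKR/J. Club cell markers were lower in 3 of 6 cases, with a list mean of 11.32 to 11.88 in prone and 11.68 to 12.09 in resistant TG mice. Of 8 ciliated cell markers 1 was lower. None was called of 9 type 2 cell, 5 mesothelial, 12 airway basal and squamous and 10 keratinised skin and oesophagus markers. Of the 18 genes of injured and transitional epithelium, 5 were higher in prone TG mice and 0 lower. The endothelial genes Cldn5 (-0.26 ± 0.05) and Pecam1 (-0.16 ± 0.04), from the list that checks the tissue, were also lower in prone TG mice. The part of these cells in the values of Scel and Sfn was not tested.

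Among WT mice, none of the 8 genes was called between prone and resistant strains, against 0.741% of all genes, and 1 of them, Dsp, had an unadjusted p under 0.05. The interval of the WT difference was -0.17 to 0.51 for Sfn, -0.45 to 0.55 for Scel and -0.25 to 0.28 for Upk1b. The Upk1b value of 0.01 turned on single WT mice, and was 0.62 without that of 129 (limma adjusted p = 0.082) and -0.36 without that of BALB/cJ (adjusted p = 0.3). Whether the TG effect itself differed between prone and resistant strains was tested as an interaction. None of the 8 genes passed, against 0.474% of all genes, and Scel and Upk1b had an unadjusted p under 0.05. The difference of effects was -0.73 ± 0.28 for Scel (limma adjusted p = 0.32), -0.53 ± 0.15 for Upk1b (adjusted p = 0.12) and 0.38 ± 0.19 for Sfn (adjusted p = 0.47). Leaving out the lone WT mouse of a strain took that strain, TG mice included, out of this test. Without the AKR/J WT mouse Sfn (0.80, limma adjusted p = 0.047) and Upk1b (-0.71, adjusted p = 0.027) passed, and Upk1b also passed without TG mouse 3 of BALB/cJ (-0.59, adjusted p = 0.033). With other strains left out like this, the values moved in the other direction. Sfn stood at 0.20 without A/J and 0.23 without BALB/cJ, and Upk1b at -0.22 without C3H. Scel ran from -0.52 without the C3H WT mouse to -1.17 without that of AKR/J, and was called in neither case. A test of any difference of the TG effect among the 6 strains called none of the 8 genes, against 1.34% of all genes, with 4 of the 8 (Sfn, Tgm1, Scel and Upk1b) at an unadjusted p under 0.05. Upk1b came nearest (limma adjusted p = 0.052), with effects that spanned 1.33. Without the C3H WT mouse, C3H fell out of the test, and the effects of the remaining strains spanned 0.55 (limma adjusted p = 0.44). Upk1b passed without the WT mouse, and so without the strain, of 129 (limma adjusted p = 0.039), AKR/J (0.046) or BALB/cJ (0.039). It also passed without TG mouse 3 of A/J (limma adjusted p = 0.031) or of BALB/cJ (0.01). Sfn effects spanned 1.31 (limma adjusted p = 0.1; 0.023 without TG mouse 2 of AKR/J) and Scel effects 1.72 (adjusted p = 0.19).

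TG mice of the emphysema-labelled strains AKR/J and BALB/cJ had less Upk1b, Tgm1 and Sprr1a than those of 129 and C3H, which carry the no-emphysema label. Of the 8 genes 3 were called, all lower, against 7.15% of all genes (2.95% higher and 4.2% lower). Upk1b differed by -1.38 ± 0.09 (limma adjusted p = 2.3e-07), with 8.77 to 9.33 against 10.09 to 10.81 (6 mice each), and only 2 of the 13499 genes had a smaller p. Tgm1 differed by -0.63 ± 0.11 (limma adjusted p = 0.0021), with 8.49 to 8.91 (median 8.66) against 8.54 to 9.65 (median 9.49). Sprr1a differed by -0.63 ± 0.15 (limma adjusted p = 0.018), with 7.33 to 7.83 against 7.84 to 8.71. Upk1b and Sprr1a were free of overlap between the sets, as were 2.72% of all genes. Differences of the same direction stood in the few WT mice, at 8.85 and 8.88 against 9.17 and 10.83 for Upk1b and 7.38 and 7.39 against 7.78 and 7.95 for Sprr1a. For Tgm1 the WT mice overlapped, at 7.57 and 7.80 against 7.75 and 7.97. Sfn (-0.31, interval -0.56 to -0.06, limma adjusted p = 0.13) and Scel (-0.30, interval -0.68 to 0.07, and -0.47 without TG mouse 3 of 129) missed the threshold, as did Ecm1, Evpl and Dsp, and Sfn passed without TG mouse 2 of AKR/J (-0.42, adjusted p = 0.018). With the 4 strain means as the unit, limma called 0 of the 8 and 0 of all genes, with Upk1b, Tgm1 and Sprr1a (3 of 8) and 935 of all genes at an unadjusted p under 0.05. Of 5 measured mesothelial markers, 1, Krt19, was lower in the emphysema-labelled strains (-0.33 ± 0.09) and none was higher. Krt19 is also on the list of injured and transitional epithelium, and Msln, Wt1, Lrrn4 and Rspo1 were not called. The mean level of the 5 mesothelial markers was 9.13 to 9.43 in the emphysema-labelled and 9.18 to 9.59 in the other strains. Of the 18 injured and transitional epithelium genes 5 were lower there and 0 higher, and type 1 cell markers were higher in 3 and lower in 1 of 15. Ciliated cell markers were lower in 3 of 8 and club cell markers in 2 of 6. The part of these cells in the values of Upk1b, Tgm1 and Sprr1a was not tested.

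**Figure D3:**
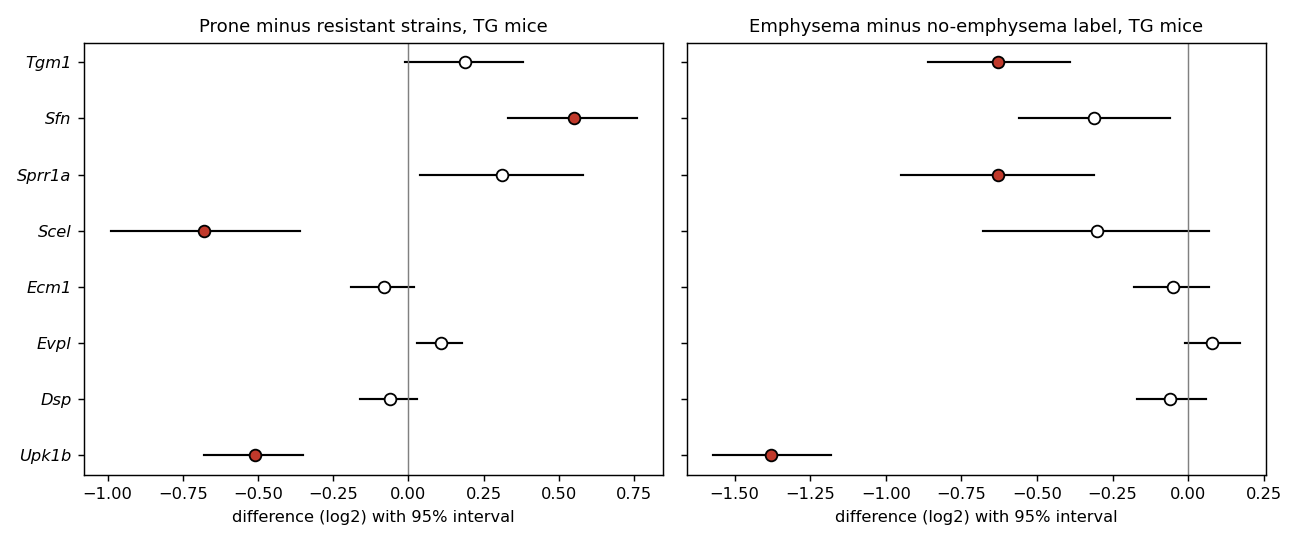
Differences among TG mice (x axis, log2) with 95% intervals for the 8 genes (y axis), prone minus resistant strains on the left and emphysema minus no-emphysema label on the right; filled points passed limma over all genes. Sfn (0.55), Scel (-0.68) and Upk1b (-0.51) are filled on the left, and Upk1b (-1.38), Tgm1 (-0.63) and Sprr1a (-0.63) on the right.

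The rest of the envelope machinery mostly did not move with genotype. In TG against WT over all strains, limma called 26.7% of all genes, 13.2% higher and 13.5% lower, with a median of 0.00. Of 36 measured genes of the cornified envelope and its cross-linking (47 listed), 2 rose and 2 fell, with a median of 0.00. S100a11, a calcium-binding envelope protein, rose by 0.41 ± 0.05, and Anxa1, the annexin, by 0.33 ± 0.05. Ppl, which encodes periplakin, the partner of envoplakin, fell by 0.37 on the log2 scale (SE 0.05, limma adjusted p = 9.2e-06), and Rptn, repetin, was at -0.28 ± 0.05. Ivl (-0.14 ± 0.07), Lor (0.00) and Sprr1b, a close relative of Sprr1a (0.04), were not called. Array signal was low for much of this list, with 24 of the 36 means under the lower quartile of gene means (6.77). Of 7 other transglutaminase genes, F13a1, coagulation factor XIII A of macrophages and platelets, fell (-0.49 ± 0.12) and none rose. The tissue transglutaminase gene Tgm2 was at 0.09 (limma adjusted p = 0.16).

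Desmosome and plakin partners rose in 3 of 15 cases and fell in 2, with a median of -0.02, where 13.2% of all genes rose and 13.5% fell. The plakophilins Pkp2 (0.35 ± 0.07) and Pkp4 (0.22 ± 0.03) and Plec, plectin (0.18 ± 0.04), rose, and Dst, dystonin (-0.17 ± 0.03), fell with Ppl. Of 5 other 14-3-3 genes 3 rose, by at most 0.17 (Ywhah), with a median of 0.08, and 2 rose with array medians subtracted. Of 22 listed targets of p53, 15 were measured, and Cdkn1a, Bax and Gdf15 were among those not measured. Of the 15, 6 rose and 3 fell, with a median of -0.03. Phlda3 was at 0.35 ± 0.06, Tnfrsf10b at 0.34 ± 0.12, Zmat3 at 0.31 ± 0.06 and Sesn1 at -0.44 ± 0.05. Mdm2, a feedback target of p53, was at -0.06 and not called. Squamous and barrier transcription factors rose in 7 of 18 cases and fell in 2, with a median of 0.05. They included Ehf (0.50 ± 0.06) and Elf3 (0.39 ± 0.08), which are ETS factors of epithelia, Tfap2a (0.32 ± 0.12), and all 3 grainyhead-like genes, Grhl1 (0.27 ± 0.04), Grhl2 (0.20 ± 0.04) and Grhl3 (0.22 ± 0.06). Prdm1, a repressor that acts in terminal differentiation, fell (-0.42 ± 0.10), as did Klf4 (-0.20 ± 0.06). Trp63, the basal cell factor p63, was at 0.05 and not called. Of 18 measured genes of injured and transitional alveolar epithelium 14 rose and none fell, with a median of 0.49. The lists were chosen with earlier results of these data known, so this count is a description and no independent support. Itgb6, whose integrin frees TGF-β from its latent form, rose by 1.48 ± 0.11, Lamb3 and Lama3, chains of laminin-332, by 1.13 ± 0.08 and 0.73 ± 0.06, and Ereg, epiregulin, by 0.72 ± 0.15. Array signal was low for Tfap2a (mean 6.07) and Ereg (mean 6.66), both under the lower quartile of gene means (6.77). Of 5 other uroplakin genes listed, Upk3a was measured (0.09, not called).

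**Figure D4:**
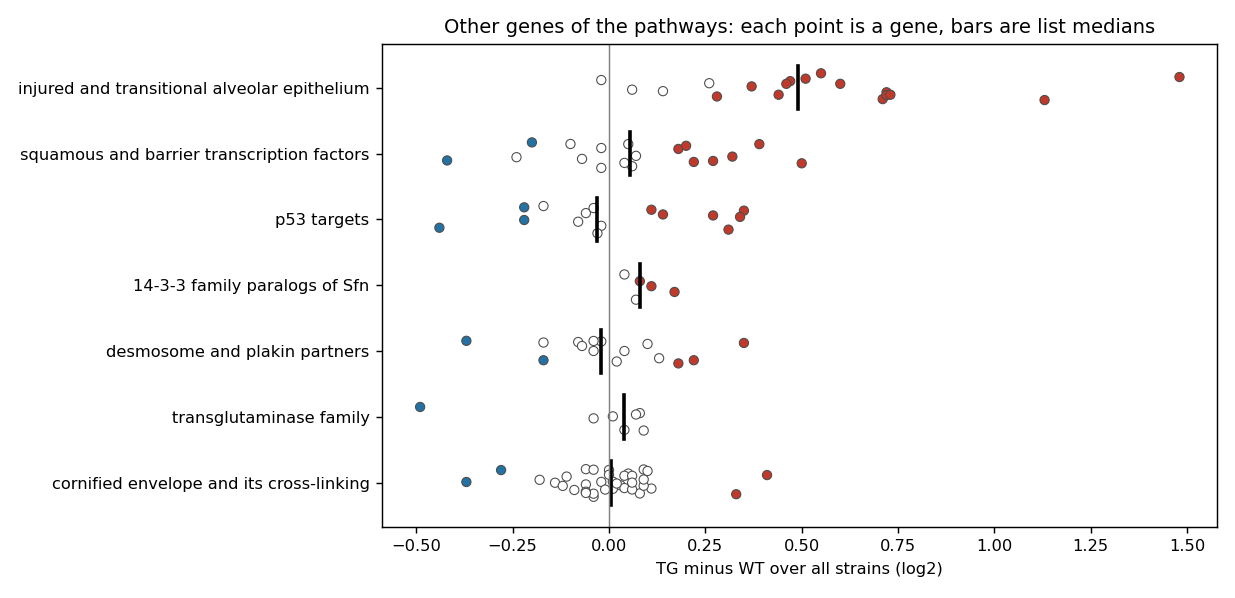
TG minus WT over all strains (x axis, log2) for each measured gene of 7 lists (y axis); points are genes, filled red if limma called them higher blue if lower and white if not called, and black bars are list medians. The median is 0.49 for injured and transitional epithelium and between -0.03 and 0.08 for the other lists. The lists were chosen with earlier results of these data known.

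Markers of cells that make a true cornified layer stayed low. Of 10 measured genes of keratinised skin and oesophagus, 1, Krt13, rose (0.11 ± 0.04), and none fell. Of all genes, 13.2% rose and 13.5% fell. Krt13 was not called with array medians subtracted. The list mean was 6.01 to 6.29 in TG and 6.03 to 6.18 in WT mice, and 8 of the 10 lay under the lower quartile of gene means. Airway basal and squamous markers rose in 2 of 12 cases (Krt17 at 0.34 ± 0.09 and Krt13) and fell in 1 (Krt15, -0.16 ± 0.05), with a list mean of 6.58 to 6.84 in TG and 6.51 to 6.75 in WT. Type 1 cell markers rose in 2 of 15 cases and fell in 2, and their list mean was 11.22 to 11.85 in TG and 11.37 to 11.73 in WT. By strain, the type 1 list mean of TG mice lay below that of WT mice in A/J (11.27 to 11.37 against 11.65), C57BL/6J (11.22 to 11.34 against 11.42 to 11.45) and 129 (11.36 to 11.49 against 11.51). It lay above in AKR/J (11.80 to 11.85 against 11.47) and BALB/cJ (11.38 to 11.52 against 11.37), and on both sides in C3H (11.65 to 11.80 against 11.73), while Scel of TG mice was below WT in all 6. Type 2 cell markers rose in 1 of 9 cases and fell in 1. Club cell markers fell in 5 of 6 cases, with a list mean of 11.32 to 12.09 in TG and 12.06 to 12.52 in WT. Epcam, a gene of many but not all epithelia, rose by 0.70 ± 0.06. The endothelial genes Cldn5 (-0.27 ± 0.05) and Pecam1 (-0.22 ± 0.04) fell. The part of the type 1, type 2, club and endothelial cell markers and of Epcam in the values of the 8 genes was not tested.

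Across the 12 strain and genotype groups, the genes most like Sfn in their means were Malt1 (Pearson r = 0.98), Atp8b2 (0.97) and Fstl1 (0.97). For Tgm1 they were Osmr, the oncostatin M receptor gene (r = 0.99), Eppk1, which encodes the plakin epiplakin (0.98), and Socs3, a feedback inhibitor of cytokine signalling (0.98). For Scel they were the endothelial genes Arhgef15 (0.97) and Ptprb (0.96) and the receptor gene Adgrf5 (0.97). Among the 8 genes, Sfn and Scel ran opposite (r = -0.95), Sfn and Tgm1 together (0.88), and Sfn and Sprr1a together (0.83), while Sfn and Dsp (0.01) were unrelated. The 12 means share genotype and strain, so these values describe likeness of pattern over 12 points alone. Sfn, Tgm1 and Scel were chosen with their directions in TG mice in view, so the signs of their correlations are no independent support.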

How the data were processed

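The authors deposited 1 table of log2 intensities per probe set. The log base was read from the range of the values (3.41 to 14.75), and for summarisation, normalisation, software and build no statement was found in the sources used here. Per the labels' protocols, an Ambion kit served for cDNA synthesis and labelling. Of 25285 probe sets, 25284 were complete, and the platform annotation gave 1 symbol for 14539, several for 781 and none here for 9964. By Entrez identifier 14480 were found in RefSeq (GRCm38.p6). For 590 genes with more than 1 probe set, that of highest mean was used. Probe sequences were not used here, so strain variants beneath probes were not checked. Array number limits the precision.

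TG against WT was fitted with limma 3.58.1 (R 4.3.3, lmFit and eBayes, two-sided) with strain plus genotype (17 residual degrees of freedom). The remaining tests used contrasts between the 12 groups, with 12 residual degrees of freedom, where a lone WT mouse is assumed to vary like the other groups. The scripts were tested on simulated data. Of the genes of each list that passed, at most 4 of largest change were named with up to 5 where a count was that small, and 3 like genes were named for Sfn, Tgm1 and Scel. Ivl, Lor, Sprr1b, Tgm2, Mdm2, Trp63, Klf4, Ereg, the Grhl genes and Epcam were chosen after their values were seen. Members and lists were chosen with earlier results of these data known. The labels do not say how mice of a group relate, so p-values measure the spread between these samples. Alternatives were quantile normalisation, array medians subtracted, a filter on dim genes, means of probe sets, array weights, a variance trend, a replicate block, strain means and each mouse left out. Python 3.11.15 with pandas 2.3.3 and matplotlib 3.10.9 served for summaries and figures.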

Additional observations from a re-analysis of the deposited data

Results flagged for a closer look

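Upk1b lay above the WT mouse in all 3 TG mice of C3H and below it in all 3 TG mice of A/J, and these 2 effects differed by 1.33 on the log2 scale. Evpl lay above both WT mice in both TG mice of C57BL/6J and below the WT mouse in all 3 TG mice of C3H, a difference of 0.27. Neither pair of strains was tested by itself, and the test over all 6 strains called neither gene. Both pairs rest on the 1 WT mouse of C3H, and the Upk1b pair rests on the 1 WT mouse of A/J as well.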

How the results depend on the processing

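Of the 3 genes called between prone and resistant TG mice and the 3 called by emphysema label, each kept its direction under every alternative run and lost its call only with strain means as the unit, where 0 genes in all and 0 of the 8 were called in both comparisons. Array weights called 5 of the 8 between prone and resistant TG mice (Sprr1a and Evpl added), 1 for the difference of TG effects and 2 for strain dependence, and added Sfn by emphysema label (-0.34, limma adjusted p = 0.043), with 193 genes in all between prone and resistant WT mice, 289 for the difference of effects, 586 for strain dependence and 1461 by emphysema label. With dim genes left out, or with a variance trend, 1 of the 8, Upk1b, was called for strain dependence. With dim genes left out, or with quantile normalisation, Evpl was added between prone and resistant TG mice, which made 4 of the 8. The replicate block moved the difference of effects from 64 to 14 genes and strain dependence from 181 to 98, and moved no call among the 8 genes. Deviations of same-numbered TG mice of different strains correlated at -0.15 to 0.13 over 40 pairs, 5 of them over 0.1. Of the 17 TG mice, 7 correlated best with their own number. These values showed no clear pairing by number among TG mice. Pairing of TG with WT mice was not checked, because a lone WT mouse does not deviate from its own group mean. With 1 mouse left out, genes called ran from 965 to 1628 between prone and resistant TG mice, 46 to 254 between WT mice, 6 to 425 for the difference of effects and 66 to 350 for strain dependence, and calls among the 8 from 0 to 2 and 0 to 1 in the last 2. In all 5 strains but C57BL/6J, TG effects rest on 1 WT mouse. Leaving that mouse out took its strain out of the WT comparison, the difference of effects and strain dependence. The lowest counts between WT mice and for the difference of effects (46 and 6) came without the WT mouse of 129. The highest (254 and 425) came without that of AKR/J. Those ends thus reflect a change in the strains compared.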
